A study of Mus musculus with 6 samples.

Results

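The innate immune genes described here sense viral or misplaced nucleic acid in the cytosol. They were chosen by name: Ddx58 (RIG-I), Ifih1 (MDA5), Dhx58 (LGP2), Mavs, Eif2ak2 (PKR), Zbp1 and Adar. All 7 were among the 18268 genes of the deposited table, and all 7 passed the filter on low values that left 12072 genes for testing. To compare berberine (BBR), a plant alkaloid, with sulfasalazine (SASP), an established colitis drug, RNA of colorectal tissue was sequenced from 3 BBR mice and 3 SASP mice. All 6 were C57BL/6 mice without any stated transgene, described in the study's methods as adult males. Every one of them drank dextran sulfate sodium (DSS), which damages the epithelium of the colon and causes colitis, for 7 days, and was given its drug by gavage for 6 days. Healthy mice and colitis mice without a drug were not analysed here, so each difference below is between the drugs and does not say which of them moved a gene.

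RIG-I and MDA5 are helicases that bind double-stranded RNA and carry caspase recruitment domains. LGP2 is related to them but lacks those domains and modulates the others. Both signalling receptors act through MAVS, an adaptor on the outer mitochondrial membrane, which leads to TBK1, IRF3 and the type I interferon genes. PKR is a kinase that is activated by double-stranded RNA and stops translation by phosphorylating eIF2. ZBP1 binds Z-form nucleic acid and can lead through RIPK3 and MLKL to necroptosis, a lytic cell death. ADAR deaminates adenosine in double-stranded RNA, which keeps the cell's own RNA from being sensed. Most of these genes are themselves induced by interferon through transcription factors such as STAT2 and IRF9, and in the gut they are active in epithelial as well as immune cells. Mavs is an adaptor and Adar an editing enzyme, so neither is a receptor in the strict sense.

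Interferon-induced genes often carry binding sites for these factors near their start, so the members' promoters are shown first. RefSeq promoter windows of 300 bases, 250 before and 50 from the transcription start on, were matched for 5 of the 7 genes, in the GRCm38.p6 build and not the mm9 build named for the expression values. Dhx58 and Zbp1 had no entry. A pair of letter patterns was searched on both strands. The first was an interferon-stimulated response element written as GAAA, any 2 bases, GAAA, and the second a gamma-activated site written as TTC, any 3 bases, GAA. The first pattern was found once each in Ddx58, Ifih1 and Eif2ak2, and in 3.44% of all 32851 promoter windows. The second was found in Eif2ak2 and in the third of 3 Adar windows, and in 8.3% of all windows. Mavs held neither. A match describes letters, not a bound site. A window without a match was not shown to lack such a site, since a fixed pattern misses variants. In the Adar stretch below, for example, GAAA recurs with a shorter gap than the first pattern allows. The 30 bases around each match follow, read along the gene's own strand with the match in capitals, and after them the 100 bases before the Mavs start.
Ddx58, chr4:40239804-40239833, minus strand: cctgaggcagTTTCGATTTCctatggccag
Ifih1, chr2:62646206-62646235, minus strand: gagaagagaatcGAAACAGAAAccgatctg
Eif2ak2, response element, chr17:78882535-78882564, minus strand: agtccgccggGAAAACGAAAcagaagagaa
Eif2ak2, gamma-activated site, chr17:78882731-78882760, minus strand: ctgcagagctTTCCCAGAAtggaagccagg
Adar, gamma-activated site, chr3:89730730-89730759, plus strand: gggaagccttTTCAAGGAAacgaaagtgaa
Mavs, chr2:131233963-131234062, plus strand: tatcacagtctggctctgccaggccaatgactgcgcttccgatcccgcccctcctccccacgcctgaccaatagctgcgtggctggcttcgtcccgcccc
Counted from 1 at the first transcribed base, the response elements began at position 3 in Ddx58, 33 in Ifih1 and 19 in Eif2ak2. The gamma-activated sites began at position 23 in Adar and at -178, before the start, in Eif2ak2.

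Over the whole series, BBR mouse 3 stood apart. Its correlation with the other BBR mice over log2 values was 0.949 to 0.953, against 0.987 between those mice and 0.982 to 0.989 among SASP mice. Without it, the comparison of the drugs by limma called 4018 genes in place of 1069, so results are also given without it where they change. Read totals were not analysed here, and depth estimated from the size of single-read values was 14700000 to 18200000 reads per mouse. On that scale the fewest reads behind a member's value were 162 (Dhx58, BBR mouse 3) and 170 (Ddx58, BBR mouse 3), where counting error alone gives a coefficient of variation of 7.85% and 7.68%. All other members had at least 708 reads in every mouse. The spread between the mice exceeded this counting error for Ddx58 and Dhx58 in both groups.

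Of the 7 genes, 5 were lower in BBR than in SASP mice (71.4% of them): Zbp1, Dhx58, Eif2ak2, Adar and Ifih1. The test was limma on log2(FPKM + 1), where FPKM are read numbers scaled by transcript length and by the mapped reads of the sample, with Benjamini-Hochberg adjustment over all 12072 genes and a threshold of 0.05. Over all genes tested, 5.04% passed in that direction and 3.82% in the other, 8.86% in all. None of the 7 was called higher. In 6 of the 7, Ddx58 added, each BBR value lay below each SASP value, which held for 16.6% of all genes tested. Mavs was the exception. The median log2 fold change (BBR minus SASP) was -0.71 over the 7 genes and 0.10 over all genes tested. In these bulk samples, fewer cells of a type and less RNA per cell cannot be told apart. Without BBR mouse 3 the same number were called lower and Mavs was called higher, while 33.8% of all genes tested were called in that fit. The count was 3 without BBR mouse 2 or SASP mouse 2, 2 without BBR mouse 1, 1 without SASP mouse 1 and 0 without SASP mouse 3. Calls also fell over all genes in these fits. They numbered 371 of 11864 without BBR mouse 2, 405 of 11899 without SASP mouse 2 and 131 of 11912 without BBR mouse 1. Without SASP mouse 1 they numbered 59 of 11948, and without SASP mouse 3, 51 of 11917. At an unadjusted p of at most 0.05, limma gave 6 lower genes with all mice and 5 without SASP mouse 3. With all mice, 1613 of the 12072 genes tested were lower and 2224 higher at that threshold. The number over all genes at that threshold was not counted without SASP mouse 3.

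**Figure D1:**
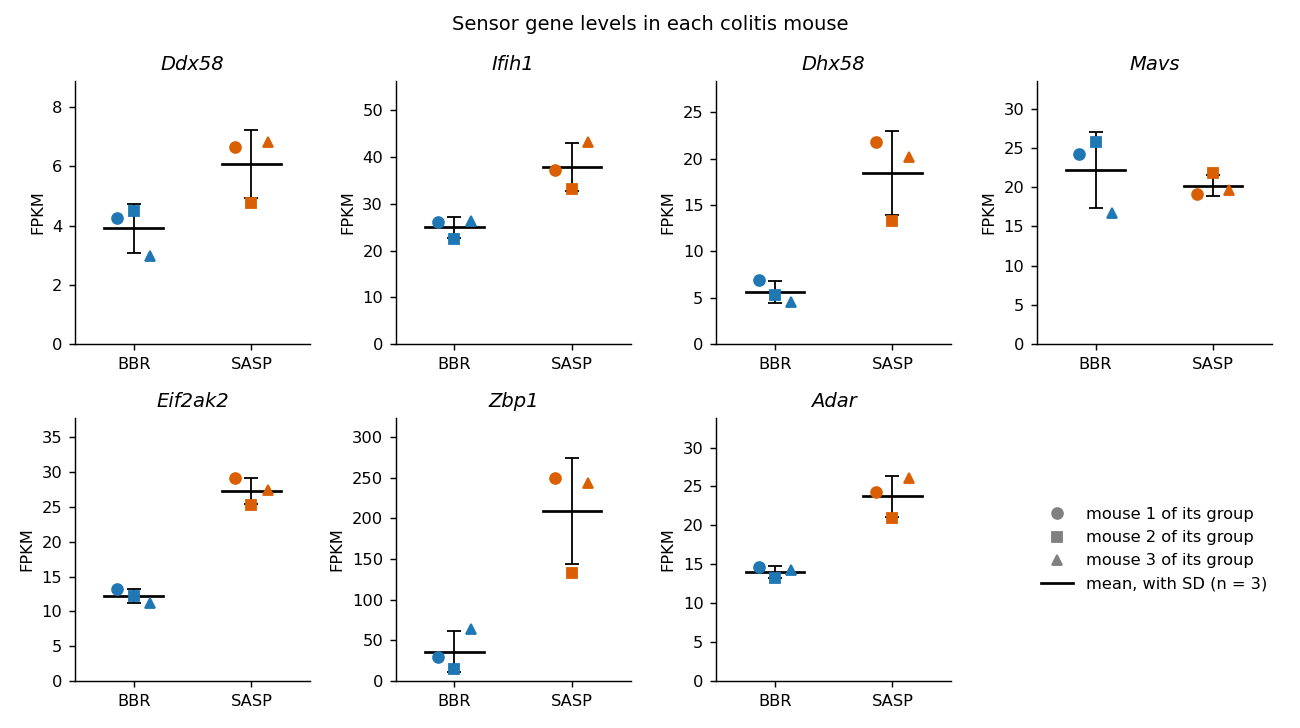
FPKM of each of the 7 genes (vertical axis, starting at 0, with its own scale per panel) in 3 BBR mice (blue) and 3 SASP mice (orange). Symbols mark mice 1, 2 and 3 of a group, which are not paired, and lines give the mean with its SD (n = 3). In every panel but that of Mavs the blue points lie below the orange ones, closest for Ddx58 (4.49 against 4.75).

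Among the RNA helicases, Dhx58, which encodes LGP2, differed the most. Its FPKM was 6.95, 5.32 and 4.57 in BBR mice 1, 2 and 3 and 21.83, 13.28 and 20.16 in SASP mice 1, 2 and 3. The lowest SASP value was 1.91 times the highest BBR value. The means were 5.61 ± 1.22 and 18.4 ± 4.53 (SD, n = 3 each), a 3.28-fold higher level under SASP. The log2 fold change was -1.54 (SE 0.22, 95% interval -2.06 to -1.03, adjusted p = 0.0149). The call was lost without SASP mouse 1 (adjusted p = 0.0738) or SASP mouse 3 (0.0799), with the fold change at -1.41 and -1.46.

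Ifih1, which encodes MDA5, the receptor for long double-stranded RNA, was the most abundant of the 3 helicases. Its FPKM was 26.13, 22.44 and 26.37 in BBR mice and 37.14, 33.17 and 43.22 in SASP mice. Each group was tight, and the groups did not overlap. The mean was 24.98 ± 2.203 under BBR and 37.8 ± 5.06 under SASP, 1.51 times higher. This gave a log2 fold change of -0.58 (SE 0.13, 95% interval -0.88 to -0.27, adjusted p = 0.0426). The call stood near the threshold. It remained without BBR mouse 3 (adjusted p = 0.0181) and was lost without any other single mouse (0.0601 to 0.156).

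Ddx58, which encodes RIG-I, the receptor for RNA with a triphosphate end, was the least abundant of the 7 in both groups. Its FPKM was 4.27, 4.49 and 2.97 in BBR mice and 6.64, 4.75 and 6.83 in SASP mice. SASP mouse 2 lay close to the BBR mice, at 1.06 times the highest of them. The means were 3.91 ± 0.821 and 6.07 ± 1.15, a ratio of 1.55, which is near that of Ifih1. The log2 fold change was -0.53 with a 95% interval of -0.98 to -0.079, and Ddx58 did not pass the threshold (SE 0.19, unadjusted p = 0.0272, adjusted p = 0.113). The interval of this change covers that of Ifih1, so a difference between the receptors in their response was not shown.

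The make-up of the helicase group differed between the drugs. The 3 genes together came to 34.5 ± 2.60 FPKM under BBR and 62.3 ± 9.92 FPKM under SASP. Of this sum, Dhx58 made up 18.6, 16.5 and 13.5% in BBR mice and 33.3, 25.9 and 28.7% in SASP mice, without overlap. Ifih1 made up 72.4 ± 4.62% under BBR and 61.0 ± 4.12% under SASP. The share of Ddx58 was 11.4 ± 2.58% and 9.71 ± 0.422%, and its groups overlapped. These shares are descriptions with no test.

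Mavs, the adaptor that RIG-I and MDA5 share, was measured at 24.19, 25.78 and 16.69 FPKM in BBR mice and 19.16, 21.77 and 19.69 FPKM in SASP mice. The BBR values straddled the SASP values, with mice 1 and 2 above all of them and mouse 3 below. The means were 22.2 ± 4.85 and 20.2 ± 1.38 FPKM. The log2 fold change of 0.11 did not pass the test (SE 0.17, 95% interval -0.29 to 0.51, adjusted p = 0.679), and the interval leaves room for moderate changes either way. BBR mouse 3 decided the value. Without that mouse Mavs was called higher under BBR, at 0.29 (adjusted p = 0.04998, just under the threshold), while without BBR mouse 2 the change was -0.0046.

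Eif2ak2, which encodes PKR, separated the groups with little spread. Its FPKM was 13.26, 12.23 and 11.14 in BBR mice and 29.1, 25.27 and 27.47 in SASP mice. The coefficient of variation was 8.68% under BBR and 7.05% under SASP, against a 2.23-fold difference between the means of 12.2 ± 1.06 and 27.3 ± 1.92. The log2 fold change was -1.10 (SE 0.11, 95% interval -1.36 to -0.84, adjusted p = 0.00558). Among the 7 it had the smallest adjusted p and was the only one to pass a threshold of 0.01. Its call was lost without SASP mouse 3 (adjusted p = 0.0526) and stood without each other mouse.

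Adar, the editing enzyme, differed less but evenly. Its FPKM was 14.71, 13.17 and 14.25 in BBR mice and 24.35, 20.89 and 26.03 in SASP mice. The BBR mice lay within a range of 1.12-fold, and the lowest SASP value was 1.42 times the highest BBR value. With means of 14.04 ± 0.791 and 23.8 ± 2.62, the level under SASP was 1.69 times that under BBR. The log2 fold change was -0.71 (SE 0.12, 95% interval -0.99 to -0.44, adjusted p = 0.02002). When BBR mouse 1, BBR mouse 2, SASP mouse 1 or SASP mouse 3 was left out, the adjusted p rose to 0.0583 to 0.106. The table holds 1 value per gene, so the interferon-induced and the constitutive isoform of ADAR could not be told apart.

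Zbp1 had the largest difference and the highest mean level of the 7. Its FPKM was 29.93, 14.3 and 63.54 in BBR mice and 249, 133.16 and 243.66 in SASP mice. Both groups were wide, most of all BBR, where the highest mouse (mouse 3) had 4.44 times the level of the lowest. Even so the lowest SASP mouse had 2.10 times the level of the highest BBR mouse. The means were 35.9 ± 25.2 and 209 ± 65.4 FPKM, a ratio of 5.81. The log2 fold change was -2.69 (SE 0.51, 95% interval -3.90 to -1.48, adjusted p = 0.0285), which ranked 55 of 12072 genes in order from the most negative. Without BBR mouse 3 it was -3.21 (adjusted p = 0.00372). With BBR mouse 1 or any 1 of the SASP mice left out, Zbp1 lost its call (adjusted p of 0.0508 to 0.125).

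**Figure D2:**
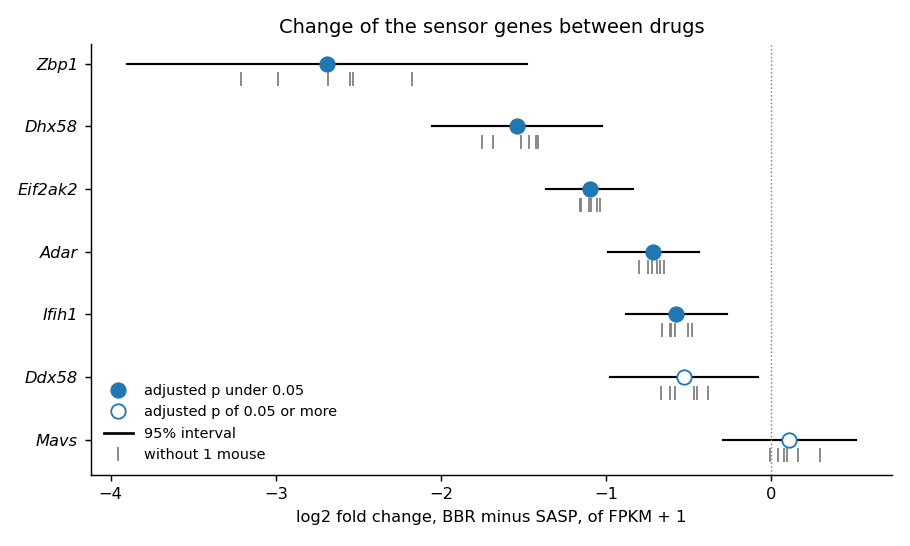
Log2 fold change of FPKM + 1, BBR minus SASP (horizontal axis), for the 7 genes ordered by size. Circles give the estimate from all 6 mice, filled where the adjusted p was under 0.05, lines the 95% interval, and ticks below them the value with 1 mouse left out. The estimates run from -2.69 for Zbp1 to 0.11 for Mavs, and only the Mavs interval crosses 0.

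Since each FPKM is scaled within its sample, the 6 other genes were also set against Mavs of the same mouse, as log2 of the ratio of FPKM + 1. The difference of this ratio (BBR minus SASP) was -2.80 for Zbp1, -1.65 for Dhx58, -1.21 for Eif2ak2, -0.82 for Adar and -0.64 for Ddx58, and the groups did not overlap in these 5. For Ifih1 it was -0.69, with BBR mouse 3 (0.63) just above SASP mouse 2 (0.59). The share of all genes tested that stand apart in such a ratio was not counted, so these results have no background. Mavs was higher in BBR mice 1 and 2 than in any SASP mouse, which lowers each ratio in those BBR mice. An exact two-sided permutation test over the 6 mice gave p = 0.1 for the 5 genes, the smallest p that 3 against 3 mice allow, and p = 0.2 for Ifih1, so none of the 6 ratios could pass 0.05. For Zbp1 the ratio was 0.30, -0.81 and 1.87 in BBR mice and 3.63, 2.56 and 3.56 in SASP mice. For Dhx58 it was -1.66, -2.08 and -1.67 in BBR mice and 0.18, -0.67 and 0.032 in SASP mice. Dhx58 was thus below Mavs in each BBR mouse and close to it in SASP mice 1 and 3.

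**Figure D3:**
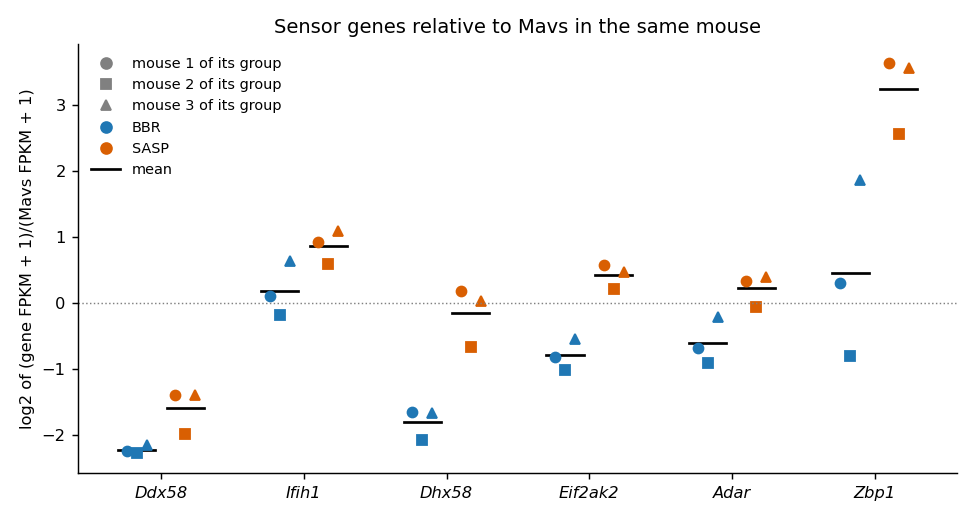
Log2 ratio of each gene to Mavs within the same mouse (vertical axis, FPKM + 1 in both) for BBR (blue) and SASP (orange) mice. Symbols mark the mouse of its group and lines the group mean. The groups stand apart for each gene but Ifih1, where 1 BBR mouse (0.63) lies above 1 SASP mouse (0.59).

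FPKM are scaled by transcript length, so levels of different genes can be ordered within a group. Under SASP the order of mean FPKM was Zbp1, Ifih1, Eif2ak2, Adar, Mavs, Dhx58 and Ddx58. Zbp1 stood apart from Ifih1, Ifih1 from Eif2ak2 and Dhx58 from Ddx58, whereas the ranges of the neighbours from Eif2ak2 to Dhx58 overlapped. Eif2ak2 was above Adar in 3 of 3 SASP mice, and Mavs above Dhx58 in 1 of 3. Under BBR the order was Zbp1, Ifih1, Mavs, Adar, Eif2ak2, Dhx58 and Ddx58. Here Zbp1 and Ifih1 overlapped, as did Ifih1 and Mavs, while Mavs stood above Adar and Eif2ak2 above Dhx58 without overlap. Adar was above Eif2ak2 in 3 of 3 BBR mice, so these genes changed places between the drugs. Zbp1 made up 28.4 ± 15.7% of the summed FPKM of the 7 genes under BBR and 60.0 ± 6.30% under SASP. Mavs made up 19.5 ± 7.24% and 6.22 ± 2.09%.

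The mice of a group also differed from each other across these genes. SASP mouse 2 had the lowest value of its group in 6 of the 7 genes and the highest in Mavs, whereas over all genes tested it was the lowest in 25.3% and the highest in 46.6%. SASP mice 1 and 3 were each the highest in 3 of the 7. BBR mouse 3 was the lowest of its group in 4 genes (Ddx58, Dhx58, Eif2ak2 and Mavs) and the highest in Zbp1 and Ifih1, and it was the lowest in 61.8% of all genes tested. SASP mouse 2 also had the lowest sum of 8 leukocyte markers among the SASP mice (39.8 FPKM, against 62.0 and 87.6) and the highest sum of 10 smooth muscle markers (2622 FPKM). The part of tissue make-up in this pattern was not tested.

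Of 8 transcription factors that interferon induces and that act on such promoters, 6 were called lower under BBR and 0 higher. These made up 75%, against 8.86% of all genes tested, and the median log2 fold change was -1.75. Leaving out any 1 mouse gave 5 or 6 lower genes, and 1 higher without BBR mouse 3. In that last fit 87.5% of the 8 were called, against 33.8% of all genes tested. With the level of smooth muscle or leukocyte markers as a covariate, limma called 1 of the 8 in each model (12.5%). Over all genes tested it called 0.149% and 0.141% in these models. Stat2, which carries the type I interferon signal to the nucleus, was at 11.46, 10.3 and 11.25 FPKM in BBR mice and at 47.31, 34.2 and 44.43 FPKM in SASP mice (-1.83, adjusted p = 0.00187). Its partner Irf9 was lower too (-1.09, adjusted p = 0.0186). So were Irf8 (-2.21, adjusted p = 0.00171) and Batf2 (-1.90, adjusted p = 0.00184), which act in myeloid cells. Irf7, the interferon-induced amplifier of type I interferon genes, did not pass (-1.30, adjusted p = 0.0621), although its BBR values of 78.36, 40.52 and 53.25 FPKM lay below the SASP values of 189.11, 84.16 and 164.64 FPKM. Irf1 (-1.68, adjusted p = 0.00478), an interferon-induced activator, is given although it fell outside the naming rule.

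Of the interferons, Ifng, the type II interferon, was listed at 0 in each BBR mouse. In SASP mice 1, 2 and 3 it reached 1.19, 0.3 and 0.21 FPKM, too low for testing. Ifnb1 was not analysed here. Of the 9 tested genes among interferons, their receptors and the kinases on them, limma called 0 with all mice. At an unadjusted p of at most 0.05, 2 of them were higher, as were 2224 of all 12072 genes tested. Without BBR mouse 3, 5 were called higher (55.6%, against 33.8% of all genes tested in that fit). The median log2 fold change of the 9 was 0.21 with all mice.

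Of 22 regulators that act on RIG-I and MDA5, 2 were called lower and 0 higher (9.09%, near the 8.86% over all genes tested), with a median of -0.15. The count was 0 without SASP mouse 1 or 3, 1 without SASP mouse 2 and 8 without BBR mouse 3 (2 higher and 6 lower), or 36.4% against 33.8% of all genes tested in that fit. Neither share sets these regulators apart. Nlrc5, best known as the activator of MHC class I genes and also described as an inhibitor of RIG-I signalling, was at 0.29, 0.36 and 0.54 FPKM in BBR mice and 15.29, 6.24 and 12.64 FPKM in SASP mice (-3.07, SE 0.30, adjusted p = 0.00482). Ddx60, an interferon-induced helicase linked to RIG-I, was at 6.93, 4.09 and 4.93 FPKM and 23.06, 16.9 and 25.86 FPKM (-1.86, SE 0.22, adjusted p = 0.00835). The ubiquitin ligases that act on RIG-I did not pass, Trim25 at -0.07 (adjusted p = 0.776) and Rnf135 at 0.11 (adjusted p = 0.652).

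Downstream of MAVS, limma called 0 of 19 tested genes, with 3 lower at an unadjusted p of at most 0.05 and a median of -0.07. Over all 12072 genes tested, 1613 were lower at that threshold. Tbk1, the kinase below MAVS, was at 21.51, 19.72 and 18.07 FPKM in BBR mice and 26.74, 26.09 and 26.53 FPKM in SASP mice, which just missed the threshold (-0.41, adjusted p = 0.0534). Its substrate Irf3 had a log2 fold change of 0.27 (adjusted p = 0.197). Leaving out SASP mouse 2 gave 1 called gene and leaving out BBR mouse 3 gave 6, 5 of them higher under BBR. Those 6 made up 31.6%, near the 33.8% of all genes tested in that fit.

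On the PKR arm, 1 of 17 tested genes was called lower and 1 higher, and the median was 0.04. These calls made up 11.8%, near the 8.86% over all genes tested. Eif2s1, the subunit of eIF2 that PKR phosphorylates, was lower under BBR (-0.48, adjusted p = 0.0361). Ddit3, a stress gene encoding CHOP, was higher, at 18.65, 17.78 and 15.19 FPKM against 11.8, 11.48 and 12.35 FPKM (0.50, adjusted p = 0.0446). Prkra, whose product PACT activates PKR, was at 26.16, 23.03 and 19.97 FPKM against 15.82, 18.95 and 15.38 FPKM and did not pass (0.44, adjusted p = 0.0843). Neither call stood on all mice, since the count was 0 without any 1 mouse other than BBR mouse 3. It was 7 without that mouse (5 higher and 2 lower), or 41.2% against 33.8% of all genes tested in that fit.

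Of 8 tested genes on the arm through which ZBP1 can kill a cell, a list that also holds a death inhibitor and inflammasome genes, 3 were called lower and 0 higher. These made up 37.5%, against 8.86% of all genes tested, and the median was -0.59. With either the smooth muscle or the leukocyte level as a covariate, described with the marker levels, the count was 0. It was also 0 for DNA sensing and endosomal receptor genes, in fits that called 0.149% and 0.141% of all genes tested. Mlkl, which executes necroptosis by perforating the membrane, was at 9.77, 8.74 and 11.87 FPKM in BBR mice and 48.78, 31.93 and 45.23 FPKM in SASP mice (-1.94, SE 0.19, adjusted p = 0.00478). Ripk3, the kinase that ZBP1 binds, was at 8.11, 6.58 and 28.02 FPKM and 72.21, 47.51 and 58.56 FPKM (-2.24, SE 0.48, adjusted p = 0.0390). As for Zbp1, BBR mouse 3 had the highest and BBR mouse 2 the lowest level of the BBR mice. Casp1, the inflammasome protease, was lower under BBR as well (-0.56, adjusted p = 0.0365). The count was 1 without any 1 mouse other than BBR mouse 3. It was 5 without that mouse (62.5%, against 33.8% of all genes tested in that fit).

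Of the 13 other double-stranded RNA binding and editing genes tested, limma called 0, with 1 higher and 4 lower at an unadjusted p of at most 0.05. Over all 12072 genes tested, 2224 were higher and 1613 lower at that threshold. The count was 2 without BBR mouse 3 (1 higher and 1 lower), or 15.4% against 33.8% of all genes tested in that fit. Adarb1, the second editing enzyme, had values of 0.72, 1.47 and 2.11 FPKM under BBR and 0.4, 1.44 and 1.05 FPKM under SASP (0.31, adjusted p = 0.483). Of 32 other DExD/H-box helicases, 1 was called, Ddx39 (-1.02, adjusted p = 0.0191), which acts in mRNA export (3.12%, against 8.86% of all genes tested), 19 had positive fold changes, and the median was 0.05. That count fell to 0 when BBR mouse 1, SASP mouse 1 or SASP mouse 3 was left out. It came to 7, 5 of them higher, without BBR mouse 3 (21.9%, against 33.8% of all genes tested in that fit).

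Of 20 tested DNA sensing genes 5 were called lower (25%, against 8.86% of all genes tested), although the median was -0.01. They were Samhd1, which degrades nucleotides (-2.07, adjusted p = 0.0186), Tmem173, which encodes STING (-1.28, adjusted p = 0.0138), Rnaseh2b (-0.93, adjusted p = 0.0230), the exonuclease Trex1 (-0.85, adjusted p = 0.0317) and Cgas (-0.77, adjusted p = 0.0353). Tmem173 was at 4.68, 4.28 and 5.4 FPKM in BBR mice and 16.78, 11.74 and 11.1 FPKM in SASP mice. Cgas, the DNA sensor upstream of STING, was low throughout, with 0.36 to 0.65 FPKM under BBR and 1.24 to 1.83 FPKM under SASP. Samhd1 and Trex1 limit the sensing of nucleic acid and are not sensors themselves. Leaving out BBR mouse 1, SASP mouse 1 or SASP mouse 3 brought the count to 0, and it was 2 without BBR mouse 2 or SASP mouse 2. Without BBR mouse 3, 6 were called lower and 2 higher (40%, against 33.8% of all genes tested in that fit). Of 5 tested endosomal receptor genes, 2 were called lower (40%, against 8.86% of all genes tested). Tlr3, the endosomal receptor for double-stranded RNA, was at 7.19, 5.95 and 7.3 FPKM in BBR mice and 17.44, 14.59 and 15.87 FPKM in SASP mice (-1.12, adjusted p = 0.00826), and Myd88, an adaptor that TLR3 does not use, was lower as well (-0.65, adjusted p = 0.0362). This count was 0 without SASP mouse 1 or 3 and 1 without BBR mouse 1 or 2. Without BBR mouse 3, 3 were called lower and 1 higher (80%, against 33.8% of all genes tested in that fit).

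**Figure D4:**
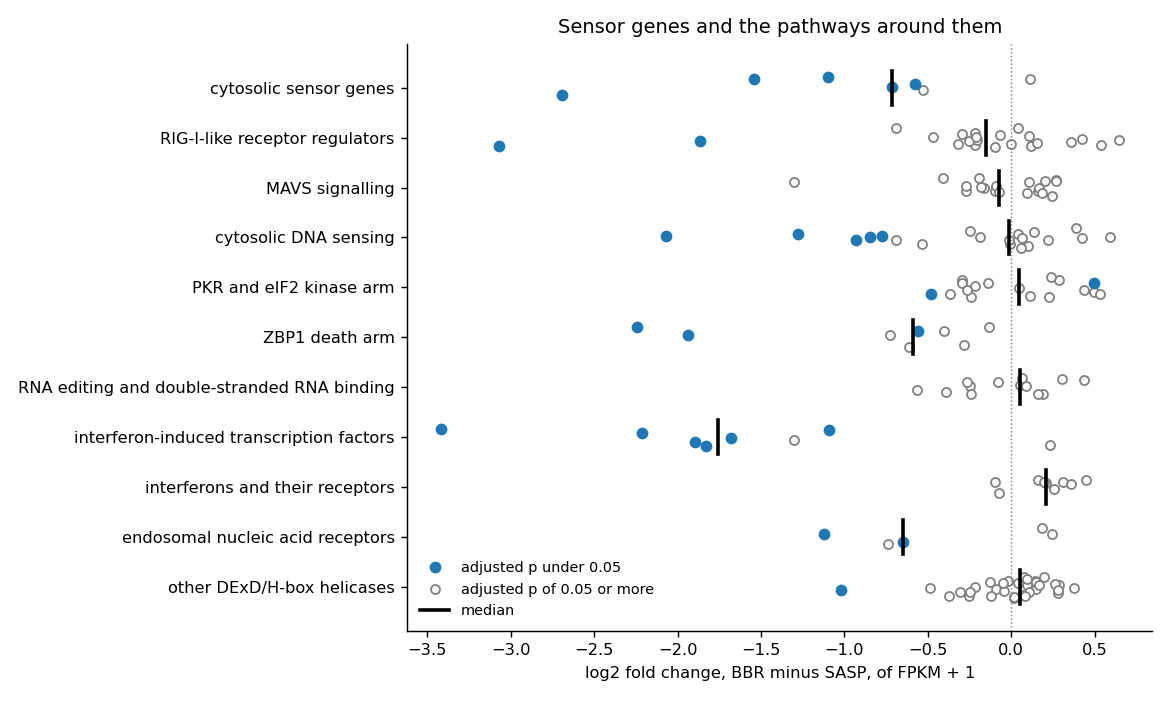
Log2 fold change of FPKM + 1, BBR minus SASP (horizontal axis), of each tested gene of the 7 sensors and of 10 lists around them (rows, scattered vertically to separate points). Filled points passed an adjusted p of 0.05 and bars mark the list median. The medians of the sensors (-0.71), the transcription factors (-1.75), the endosomal receptors (-0.65) and the ZBP1 death arm (-0.59) lie to the left, while the MAVS signalling genes lie around 0 (-0.07).

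For each called member, the genes whose log2 profiles over the 6 mice lay nearest by Euclidean distance, each centred on its own mean, were looked up among all genes tested. They were Ifit1 (distance 0.55) and Socs1 (0.65) for Zbp1, Xaf1 (0.20) and Cmpk2 (0.28) for Dhx58, Traip (0.16) for Eif2ak2, Casp1 (0.14) and Pirb (0.20) for Ifih1, and Tmem245 (0.15) and Trim34a (0.17) for Adar. Ifit1, an RNA-binding antiviral gene, had 5.47, 1.94 and 7.24 FPKM in BBR mice and 43.15, 21.68 and 38.5 FPKM in SASP mice, the same order of mice as Zbp1 within the BBR group. Since Ifit1 was picked as the nearest profile, its like order of mice is not a separate result. The nearest neighbours of Zbp1 lay farther away than those of the other members. This distance is not scaled to the spread of a gene, and Zbp1 had the largest difference of the 7.

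The tissue label was checked against markers. Summed over 12 colon epithelium markers, FPKM was 8939 to 11757 in BBR mice and 8884 to 9187 in SASP mice, and the 6 squamous markers measured summed to at most 2.3, with Krt5, Krt4 and Trp63 at 0 in at least 1 mouse. The overlapping epithelium sums do not show that each of the 12 markers was alike. Of these, limma called 2 higher under BBR and 1 lower, and in 5 the groups did not overlap. Krt18 was higher (0.75, adjusted p = 0.0163), as was Cdx2 (adjusted p = 0.0422). Vil1 was lower (-0.55, adjusted p = 0.0327). Car1 (2.48, adjusted p = 0.095) and Krt20 (-1.18, adjusted p = 0.0613) did not pass. Markers of some other cell types also differed between the drugs, as given here beside the sensor results. The 8 leukocyte markers summed to 26.4 to 42.5 FPKM in BBR and 39.8 to 87.6 FPKM in SASP mice. Of these, 7 were lower, 5 of them at an unadjusted p of at most 0.05, and limma called 0. At that unadjusted threshold 1613 of all 12072 genes tested were lower. Macrophage and monocyte markers summed to 146 to 210 and 268 to 298 FPKM, with 2 of 11 tested called lower. Dendritic cell markers summed to 10.6 to 15.6 and 24.1 to 56.4 FPKM, but 5 of those 8 stayed below 1 FPKM in every mouse. Most of that sum came from Bst2, which interferon also induces (7.85 to 12.63 and 21.1 to 51.88 FPKM), and without it the sums of 2.77 to 4.42 and 3.02 to 4.49 FPKM overlapped. Likewise the macrophage and monocyte sums overlapped without Cd14, at 114 to 190.01 and 181 to 198 FPKM. That overlap was BBR mouse 2 above SASP mouse 1 (181.36 FPKM). Leaving out Bst2 and Cd14 was chosen after seeing the data. Cd14 was not the only macrophage and monocyte marker that differed. Ccr2 was called lower too (-0.73, adjusted p = 0.0390). Lyz2 did not overlap (59.21 to 92.93 and 99.12 to 113.1 FPKM) but did not pass (adjusted p = 0.117). Of the 11 tested, 3 had positive fold changes. Granulocyte markers summed to 192 to 567 and 357 to 536 FPKM, with S100a8, Mpo, Camp and Ngp at 0 in at least 1 mouse. Ly6g made up most of that sum in BBR mice 1 and 2 (232.14 and 189.99 FPKM). S100a8 was at 0, 0 and 6.19 FPKM in BBR mice and 18.53, 20.64 and 23.14 FPKM in SASP mice. By limma it was called lower (-3.49, adjusted p = 0.0365), while S100a9 did not pass (-2.21, adjusted p = 0.0746). Of 5 tested granulocyte markers, 4 had negative fold changes and 1 a positive one. T and NK cell markers (5.62 to 8.82 and 4.59 to 10.9 FPKM) and B and plasma cell markers (144 to 199 and 130 to 162 FPKM) overlapped between the drugs.

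Stromal markers moved the other way. The 10 smooth muscle markers summed to 3183 to 7414 FPKM in BBR mice, highest in mouse 3, and to 863 to 2622 FPKM in SASP mice. All 10 were higher, 8 at an unadjusted p of at most 0.05, with a median of 1.32, and limma called 0. At that unadjusted threshold 2224 of all 12072 genes tested were higher. Fibroblast markers summed to 283 to 382 and 125 to 223 FPKM (4 of 8 called higher), and endothelial markers to 31.3 to 52.6 and 18.0 to 25.1 FPKM. Skeletal muscle markers, which are not stromal, overlapped between the drugs at 8.19 to 20.1 and 6.82 to 11.9 FPKM. With the mean log2 level of the smooth muscle markers as a covariate, limma called 0 of the 7 sensors and 18 of all genes. With that of the leukocyte markers it called 0 and 17. At an unadjusted p of at most 0.05, 5 sensors were lower in either model. The number over all genes at that threshold was not counted in these models, so the 5 have no background to be read against. Both levels are confounded with the drug among 6 mice, so tissue make-up and drug cannot be told apart for these genes. The fold changes of Eif2ak2 (-0.92 and -0.97), Adar (-0.65 and -0.64), Ifih1 (-0.58 and -0.56) and Zbp1 (-2.93 and -2.83) stayed near those without a covariate, whereas Dhx58 (-1.06 and -1.16) and Ddx58 (-0.18 in both) came closer to 0.

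**Figure D5:**
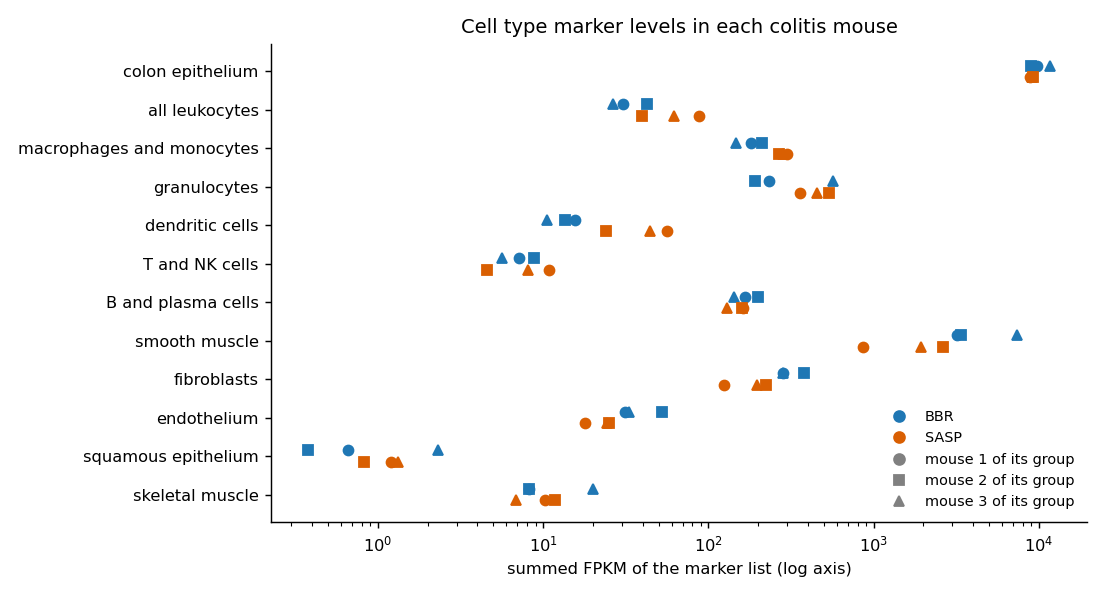
Summed FPKM of each cell type's marker list (horizontal log axis) in BBR (blue, upper in each row) and SASP (orange, lower) mice, with symbols for the mouse of its group. Smooth muscle, fibroblast and endothelial sums do not overlap between the drugs, with smooth muscle highest in BBR mouse 3 (7414). Macrophage and dendritic sums do not overlap either, but do once Cd14 and Bst2 are left out.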

How the data were processed

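RNA sequencing of colorectal tissue was compared between 3 BBR and 3 SASP colitis mice, grouped by the treatment label. Mouse numbers follow accession order and pair nothing. The labels do not state that each sample came from a separate mouse, so p-values measure the spread between these samples. The authors deposited FPKM values per gene and sample. The submitters' processing notes name Bowtie2 2.2.5, RSEM 1.2.12 and the mm9 build, whose coordinates are not printed. The study's methods describe ribosomal RNA depletion, short single-end reads from DNA nanoballs and rectal tissue, whereas the labels name an Illumina kit and colorectal tissue. RSEM divides reads that fit several genes, which leaves close paralogs uncertain.

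Genes that reached 1 FPKM in 3 or more of the 6 samples were tested with limma 3.58.1 in R 4.3.3 (empirical Bayes with a mean-variance trend, two-sided) on log2(FPKM + 1), which understates changes of low genes. P-values were adjusted by Benjamini-Hochberg over all genes tested. Count models were not applied to FPKM, and 3 samples against 3 limit precision. Depth was estimated from genes above 0 in a single sample, taking such a value as 1 read, with the longest GENCODE M21 transcript as the length. This is approximate, and counting error covers reads only. Steps were tested on simulated data.

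The genes and lists were chosen with earlier results of these data known. Named were all 7 genes, up to 4 called genes of each list with the smallest p, some defining genes, and the 2 nearest profiles of each called member. Some genes that this rule selected are not reported here. Alternatives were other filters, pseudocounts, scalings, weights, thresholds and covariates, and leaving out each mouse.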

Additional observations from a re-analysis of the deposited data

How the results depend on the processing

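Each of the 7 genes kept its direction under all alternatives, except Mavs, which was -0.0046 without BBR mouse 2. The calls did not hold as well. Of the 7 genes, 5 were called with all mice, 3 with no filter on low values and 1 at an adjusted p under 0.01. With the smooth muscle or the leukocyte covariate 0 were called, in fits that called 18 and 17 of 12072 genes. Leaving out 1 mouse gave 0 to 6 called members. Array weights gave all 7, Mavs among them as higher, in a fit that called 7126 of 12072 genes, 4636 of them higher. With a mean FPKM of at least 5, which removed Ddx58, the median of the genes was -0.91. With 1 mouse left out, the median ranged from -0.80 to -0.65. Eif2ak2 kept its call in 14 of 17 alternatives, Dhx58 in 12, Adar in 10, Zbp1 in 9 and Ifih1 in 7. Mavs was called in 2 of 17, with array weights and without BBR mouse 3 (0.29). Ddx58 was called in 2 of 16, with array weights and at an unadjusted p of at most 0.05.

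Over all genes, 1069 were called (461 higher and 608 lower). The count was 608 with no filter (225 higher and 383 lower), 1737 under quantile normalization (743 and 994), 1713 under scaling by median ratios (631 and 1082), 7126 with array weights (4636 and 2490), 18 with the smooth muscle covariate (2 and 16), 17 with the leukocyte covariate (1 and 16), 3837 at an unadjusted p of at most 0.05 (2224 and 1613) and 109 at an adjusted p under 0.01 (15 and 94). Leaving out 1 mouse gave 51 (SASP mouse 3) to 4018 (BBR mouse 3). Array weights gave BBR mouse 1 and SASP mouse 3 most of the weight (5.32 and 4.85) and BBR mouse 3 the least (0.129). The ratios to Mavs kept their direction with a pseudocount of 0.1 and without each mouse. The cause of these changes was not tested. No paired analysis was possible because the labels give the groups no shared replicate numbers. Depth limits Ddx58 and Dhx58 most.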
